A study of Mus musculus with 19 samples.

Results

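Macrophages sorted from the auditory nerve of young mice were set against the other cells sorted from that nerve. The comparison rested on 2 of the 19 libraries of the study, 1 auditory nerve macrophage library (number 3) and 1 auditory nerve nonmacrophage library (number 8), found by their names in the deposited gene table. The study sequenced RNA of sorted inner ear cells at 2 ages, from the whole cochlea or from its auditory nerve or lateral wall after dissection. All mice, in every group, were heterozygous knock-ins (CX3CR1 GFP/+), in which green fluorescent protein takes the place of 1 copy of Cx3cr1, so all animals kept a single working copy of that chemokine receptor gene. Flow sorting took the fluorescent cells as macrophages, and the cells without fluorescence, a mixture of cell types, as nonmacrophages. Both nerve samples were from mice 1.5 months old. The labels count the tissue of 1 mouse as 1 sample and do not say whether the nerve libraries came from the same animal, and their numbers do not pair them. The same sorts of the young whole cochlea (2 macrophage and 4 nonmacrophage libraries) and of the young lateral wall (1 and 1) are used below for comparison. The statistical fit to the whole cochlea also took in 4 macrophage and 4 nonmacrophage libraries of mice 12 to 14 months old, which share its estimate of the spread but not the contrast.

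The auditory nerve carries the axons of the spiral ganglion neurons from the cochlea to the brainstem. Schwann cells make the myelin of its peripheral stretch and oligodendrocytes that of its central stretch. Macrophages are resident in the ganglion and among the fibres, where they take up debris and dying cells. They depend on the receptor Csf1r, whose ligands are Csf1 and Il34. Cx3cr1 on their surface binds fractalkine, the product of Cx3cl1.

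Both nerve libraries held 26.4 M reads in genes (M, mega), with 14428 genes detected in the macrophage library and 16100 in the nonmacrophage library. The other young sorted libraries held up to 60.2 M reads. The cochlea macrophage libraries, replicates 9 and 15, detected 11652 and 13532 genes, fewer than the nerve macrophage library. Values are normalized reads, meaning read counts divided by a factor for each library. A count of 0 allows up to 3 reads, equal to 4.96 normalized reads in the macrophage and 4.2 in the nonmacrophage library. With 1 library per sort there was no replicate check and no test of the nerve difference. The 95% intervals given with ratios cover counting error alone, and the reads carry no molecular identifiers. Fewer cells of a type and less RNA per cell cannot be told apart in such bulk libraries.

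Transcripts of both sexes were present in both nerve libraries, although the labels count 1 mouse per sample. Xist, expressed from the inactive X chromosome of females, had 692 normalized reads in nerve macrophages and 101 in nerve nonmacrophages. The Y-linked Ddx3y had 2310 in nerve macrophages and 2150 in nerve nonmacrophages, and Eif2s3y, Kdm5d and Uty were also detected in both. Among the cochlea macrophages, replicate 9 had 2930 normalized reads of Xist and 0 of Ddx3y, and replicate 15 had 1.13 of Xist and 1428 of Ddx3y. The part of mixed material in the results was not tested, and no result can be given without these libraries, since each sort had 1.

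The markers Cx3cr1, Apoe and Mbp differed between the sorts. Cells were sorted by the reporter at Cx3cr1, so the direction of that gene was set by the sort. Cx3cr1 had 51002 normalized reads in nerve macrophages and 2.8 in nerve nonmacrophages, from 30872 and 2 reads, a ratio of 18234 (95% exact interval 5047 to 150570). Apoe, which encodes a lipid carrier and lies on chromosome 7 at 19696109 to 19699188 (mm10, minus strand), had 1730000 in nerve macrophages and 178380 in nerve nonmacrophages, a ratio of 9.7 (9.64 to 9.76). Mbp, a structural protein of myelin, had 20180 in nerve macrophages and 2290000 in nerve nonmacrophages, 113-fold lower in macrophages (111 to 116). Apoe was thus abundant in both sorts, with 3.96% of all reads in macrophages and 0.483% in nonmacrophages, and Mbp reads were present in the macrophage library.

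The same genes separated the replicated young cochlea libraries, which the nerve ratios do not use. Cx3cr1 had 9201 and 22528 normalized reads in the cochlea macrophage libraries, against 1.78, 2.72, 1.63 and 4.28 in the cochlea nonmacrophage libraries. Apoe had 2080000 and 947719 in cochlea macrophages, against 177827, 176755, 130003 and 107373 in cochlea nonmacrophages. Mbp had 26033 and 28892 in cochlea macrophages, against 1160000, 1230000, 2510000 and 1780000 in cochlea nonmacrophages. The groups did not overlap for any of the markers, but the share of all genes without overlap was not counted. For Cx3cr1 the direction was set by the sort. The limma log2 differences were 12.02 ± 0.66 (SE) for Cx3cr1, 3.28 ± 0.33 for Apoe and -5.86 ± 0.43 for Mbp, with Benjamini-Hochberg adjusted p of 4.5e-08, 6.9e-06 and 5.3e-07. With library quality weights the adjusted p was 0.098 for Apoe and 0.058 for Mbp. In the lateral wall pair the log2 ratios were 8.37, 3.67 and -1.53, with 3031 normalized reads of Mbp in macrophages and 8749 in nonmacrophages.

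Of 18639 gene symbols, 15276 reached 20 normalized reads in at least 1 nerve library. Among these, 1769 genes (11.6%) were at least 4-fold higher in macrophages and 3566 (23.3%) at least 4-fold lower, on the log2(value + 1) scale. The other 9941 genes (65.1%) lay within 4-fold, and the median log2 ratio was -0.16. No reads in nonmacrophages were seen for 356 of the higher genes, and no reads in macrophages for 1429 of the lower ones. At 100-fold, 313 genes were higher and 751 lower. Quantile normalization of the libraries moved the median to 0.02 and gave 2467 higher and 2812 lower genes.

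**Figure D1:**
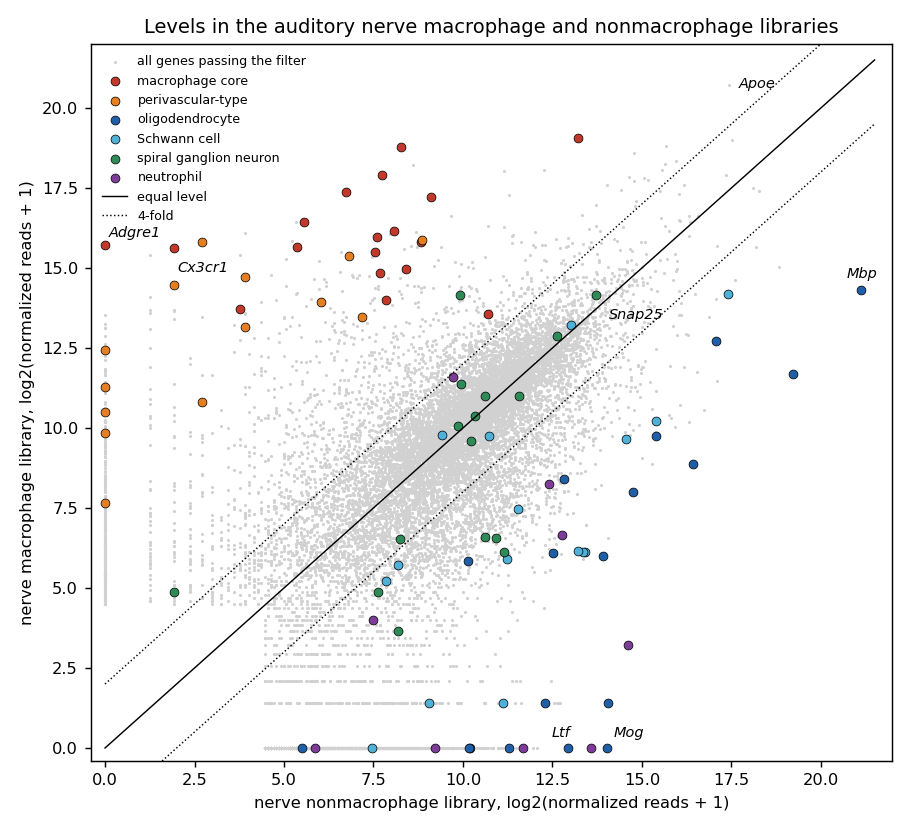
Each point is 1 of the 15276 genes, at its level in the nerve macrophage library (y) and the nerve nonmacrophage library (x), both as log2(normalized reads + 1), with 6 marker lists in colour. The solid line marks equal level and the dotted lines 4-fold. Macrophage core and perivascular-type genes lie above the upper dotted line, most Schwann cell genes and all oligodendrocyte genes below the lower one, and Snap25 close to equal level.

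Counted as reads per kilobase of the longest annotated transcript, the macrophage library was led by Apoe (1228693 normalized reads per kb), Cst3, an inhibitor of cysteine proteases (464290), and Lyz2, the macrophage lysozyme (414026). Among the next were Tmsb4x, C1qb, Ctss, Ctsd, B2m and Cd74. The nonmacrophage library was led by Mbp (477382 per kb), Ptgds, a prostaglandin D synthase (224319), and Coch, the cochlear matrix protein cochlin (174226). Among the next were Hba-a1, Fth1, Hba-a2, Apoe and Trf. The 100 genes with the most reads held 31.7% of reads in macrophages and 27.7% in nonmacrophages.

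The 12 genes with the highest nerve ratio and at least 500 normalized reads were surface receptors and secreted products of myeloid cells. Adgre1, the gene of the macrophage antigen F4/80 on chromosome 17 at 57358691 to 57483527, had 54333 normalized reads in nerve macrophages and 0 in nerve nonmacrophages, at least 12950-fold higher. P2ry13, a receptor for ADP, had 43287 in nerve macrophages and 1.4 (1 read) in nerve nonmacrophages, a ratio of 30951 (5555 to 1222559). The mannose receptor gene Mrc1 had 58007 in nerve macrophages and 5.59 in nerve nonmacrophages, a ratio of 10369 (4049 to 38059). Il1a, which encodes the cytokine interleukin 1 alpha, had 9788 in nerve macrophages and 0 in nerve nonmacrophages, at least 2333-fold higher. Further members were Cx3cr1, Ms4a6d, Clec4a3, Fcna, Ms4a6b, Lilra5 and Pf4. In the young cochlea all 12 rose in macrophages, with limma log2 differences of 6.83 for Fcna to 12.1 for Mrc1 and adjusted p from 2.7e-08 to 0.0058. Library quality weights ended 8 of these calls, and the fit to the 6 young libraries alone ended that of Fcna (adjusted p of 0.11).

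The 12 genes with the lowest ratio had at most 1 read in nerve macrophages. Mog, a surface protein of oligodendrocyte myelin on chromosome 17 at 37010743 to 37023398, had 0 normalized reads in nerve macrophages and 16597 in nerve nonmacrophages, at least 3349-fold lower in macrophages. Olig1, a transcription factor of the oligodendrocyte lineage, had 0 in nerve macrophages and 7885 in nerve nonmacrophages, and Enpp6, a choline phosphodiesterase of newly formed oligodendrocytes, had 0 in nerve macrophages and 7380 in nerve nonmacrophages. Ermn, a cytoskeletal protein of oligodendrocytes, had 1.65 (1 read) in nerve macrophages and 16983 in nerve nonmacrophages. Ltf and Camp, granule proteins of neutrophils, and Prg2, a granule protein of eosinophils, had 0 in nerve macrophages, against 12130, 3289 and 3236 in nerve nonmacrophages. Scara5, Shroom2, Cldn8, Mfap3l and Rhobtb3 were also at 0 in nerve macrophages, against 2840 to 4337 in nerve nonmacrophages. In the young cochlea 11 of the 12 fell in macrophages, and Ltf had a log2 difference of -7.09 ± 2.6 with an adjusted p of 0.053. Of these 11 calls, 9 were lost with library quality weights and 6 with the 6 young libraries alone.

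**Figure D2:**
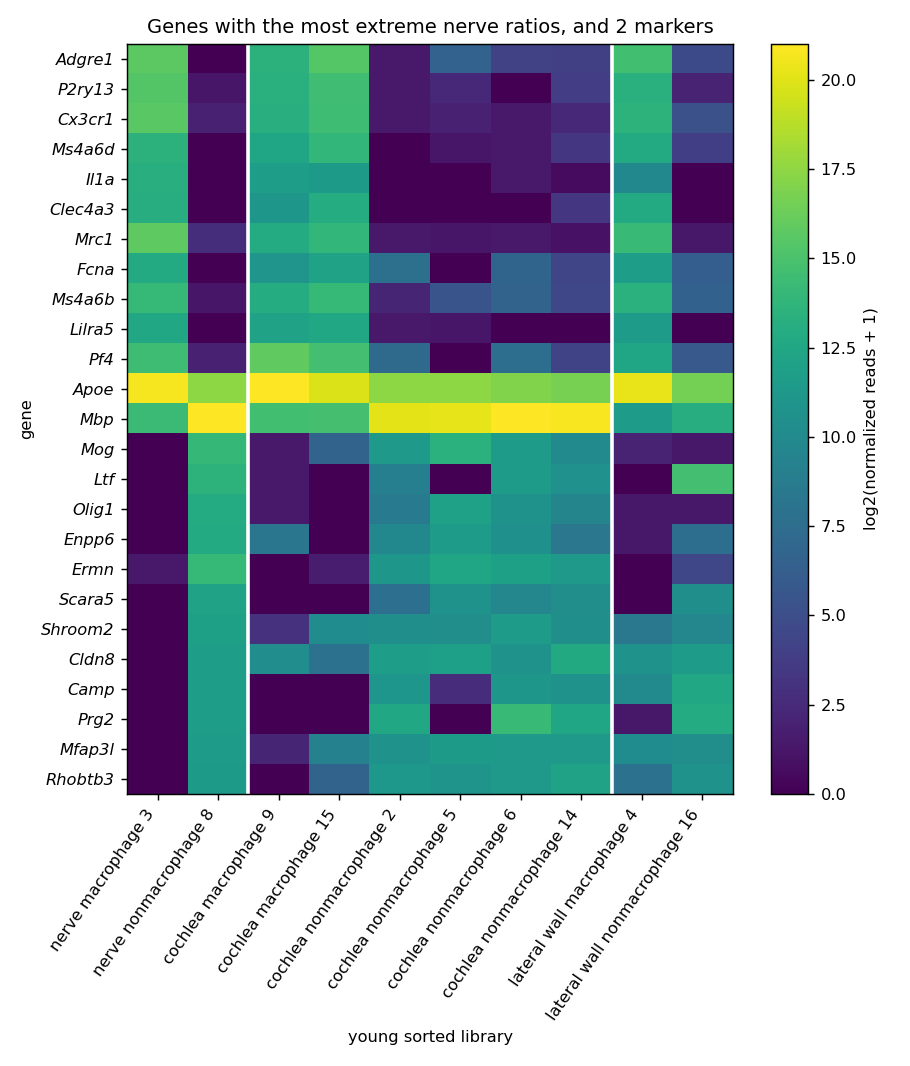
The colour gives log2(normalized reads + 1) of each gene (rows) in each young sorted library (columns), with the nerve pair at the left, the cochlea libraries in the middle and the lateral wall pair at the right. The upper 11 rows are genes among the 12 with the highest nerve ratio, followed by Apoe and Mbp and by the 12 genes with the lowest nerve ratio. The upper rows are high in every macrophage library, while Cldn8, at 0 in nerve macrophages, has 1255 and 244 normalized reads in cochlea macrophages and 1643 in lateral wall macrophages.

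The promoters of 5 of these genes are shown as the stretch of 250 bases before to 50 bases after the start of the gene, since they are at the ends of the nerve ratio (RefSeq, GRCm38.p6, written in the direction of transcription). Capitals mark matches to GAGGAAG, a core bound by the myeloid factor PU.1 (gene Spi1), to GGAA followed by any 2 bases and GAAA, the composite site of ETS and IRF factors, or to ACAAAG, a core bound by SOX factors, on either strand, so that GAGGAAG on the other strand reads CTTCCTC.
P2ry13 (chr3:59210833-59211132, minus strand): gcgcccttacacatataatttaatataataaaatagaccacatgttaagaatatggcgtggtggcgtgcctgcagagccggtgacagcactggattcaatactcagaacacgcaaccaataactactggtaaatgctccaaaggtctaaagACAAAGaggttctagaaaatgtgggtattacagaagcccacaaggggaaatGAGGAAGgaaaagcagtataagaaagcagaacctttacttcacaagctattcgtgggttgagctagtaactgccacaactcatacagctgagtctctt
Cx3cr1 (chr9:120068247-120068546, minus strand): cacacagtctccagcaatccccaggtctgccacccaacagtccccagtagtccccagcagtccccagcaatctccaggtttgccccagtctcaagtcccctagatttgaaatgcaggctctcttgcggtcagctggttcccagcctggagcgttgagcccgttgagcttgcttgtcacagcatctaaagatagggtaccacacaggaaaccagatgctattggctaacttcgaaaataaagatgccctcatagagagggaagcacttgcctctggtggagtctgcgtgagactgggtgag
Mrc1 (chr2:14229164-14229463, plus strand): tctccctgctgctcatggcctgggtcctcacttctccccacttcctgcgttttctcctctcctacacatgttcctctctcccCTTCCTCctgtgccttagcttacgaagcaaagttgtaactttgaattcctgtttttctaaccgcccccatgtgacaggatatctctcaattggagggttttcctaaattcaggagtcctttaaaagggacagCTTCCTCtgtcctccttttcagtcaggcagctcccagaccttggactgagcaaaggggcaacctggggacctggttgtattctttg
Mog (chr17:37023349-37023648, minus strand): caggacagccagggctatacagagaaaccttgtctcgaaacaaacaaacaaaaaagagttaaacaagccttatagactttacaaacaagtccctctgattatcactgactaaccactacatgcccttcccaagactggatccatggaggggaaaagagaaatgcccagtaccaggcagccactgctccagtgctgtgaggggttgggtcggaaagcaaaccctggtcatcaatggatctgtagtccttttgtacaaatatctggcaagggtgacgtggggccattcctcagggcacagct
Enpp6 (chr8:46986637-46986936, plus strand): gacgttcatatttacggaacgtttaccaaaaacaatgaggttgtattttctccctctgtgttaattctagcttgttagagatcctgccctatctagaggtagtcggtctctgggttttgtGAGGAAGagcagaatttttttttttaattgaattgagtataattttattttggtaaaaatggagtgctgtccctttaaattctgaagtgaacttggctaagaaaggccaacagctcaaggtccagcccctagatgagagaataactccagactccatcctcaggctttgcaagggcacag
P2ry13 held 1 match each to GAGGAAG and ACAAAG, Mrc1 held 2 to GAGGAAG, and Enpp6 held 1 to GAGGAAG, whereas Cx3cr1 and Mog held none. Over all genes, GAGGAAG was found in 19.0% of 1648 promoters of genes at least 4-fold higher in nerve macrophages, in 11.9% of 3326 promoters of genes at least 4-fold lower, and in 13.5% of 14990 promoters of all genes that passed the filter. The ETS and IRF composite site was found in 4.07%, 2.22% and 2.37% of these promoters, ACAAAG in 15.9%, 16.6% and 14.3%, and TGANTCA, the AP-1 site, in 7.77%, 6.13% and 5.38%. The TGANTCA matches are not in capitals. A match is a match of letters and not a measured binding site, and the shares were not tested.

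Macrophage genes were high as a group. All 18 macrophage core genes in the table passed the filter and all were at least 4-fold higher in nerve macrophages, against 11.6% of all genes, with a median log2 ratio of 8.23. Csf1r had 454592 normalized reads in nerve macrophages and 309 in nerve nonmacrophages. C1qa, C1qb and C1qc, the subunits of complement C1q, had 89270, 246873 and 171577 in nerve macrophages, against 46.2, 214 and 106 in nerve nonmacrophages. Lyz2 had 544858 in nerve macrophages and 9418 in nerve nonmacrophages, a lower ratio of 57.9 (56.5 to 59.3). Together the list took 4.95% of reads in macrophages and 0.0385% in nonmacrophages. In the young cochlea 17 of the 18 rose in macrophages and none fell, against 9.18% of 18441 genes called higher and 22.3% called lower. The list counts below are to be read beside these shares, and beside 11.6% higher and 23.3% lower in the nerve pair.

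Markers of microglia, the macrophages of brain tissue, and of the macrophages that line vessels and membranes were high in the same library. All 10 microglia-type genes were at least 4-fold higher in nerve macrophages, against 11.6% of all genes, with a median log2 ratio of 8.68. P2ry12, an ADP receptor that defines brain microglia, had 68785 normalized reads in nerve macrophages and 250 in nerve nonmacrophages. Siglech had 38242 in nerve macrophages and 61.5 in nerve nonmacrophages. Slc2a5, a fructose transporter, had 4893 in nerve macrophages and 0 in nerve nonmacrophages, at least 1166-fold higher. Its log2 ratio in the lateral wall pair was 0.0, a value that a gene without reads also has. All 14 perivascular-type genes were at least 4-fold higher as well, with a median of 9.54. Beside Mrc1, they included Pf4 with 22582 in nerve macrophages and 2.8 in nerve nonmacrophages, F13a1 with 59970 in nerve macrophages and 459 in nerve nonmacrophages, and Folr2, a folate receptor, with 5505 in nerve macrophages and 0 in nerve nonmacrophages. Of these lists, 8 of the 10 microglia-type and 11 of the 14 perivascular-type genes rose in young cochlea macrophages, and none of either list fell. Of all genes tested there, 9.18% rose and 22.3% fell.

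Genes of other leukocytes differed in direction from list to list. Of 11 monocyte and dendritic cell genes that passed the filter, 8 were at least 4-fold higher and 1 lower in nerve macrophages. The lower one, Xcr1, a receptor of dendritic cells, had 11.6 normalized reads in nerve macrophages and 50.3 in nerve nonmacrophages, and was within 4-fold after quantile normalization or with a pseudocount of 10. Ccr2, the receptor of recruited monocytes, had 11247 normalized reads in nerve macrophages and 106 in nerve nonmacrophages. Cd209a, a lectin of dendritic cells, had 3512 in nerve macrophages and 0 in nerve nonmacrophages. For Ccr2 the limma difference between the young cochlea sorts was 3.65 with an adjusted p of 0.16, and 2 genes of the list rose and 1 fell. Of 9 neutrophil genes, 8 were at least 4-fold lower in nerve macrophages, against 23.3% of all genes. Among them were Ngp, with 8.26 in nerve macrophages and 25265 in nerve nonmacrophages, and S100a9, with 99.1 in nerve macrophages and 6980 in nerve nonmacrophages. Of 12 genes of T, B, NK and mast cells, 5 were higher and 3 lower, the lower share being near the 23.3% of all genes, and 8 were higher after quantile normalization. The B cell genes Cd79a and Ms4a1 had 0 in nerve macrophages, against 122 and 201 in nerve nonmacrophages, but Cd79b, the partner of Cd79a, had 1563 in nerve macrophages and 208 in nerve nonmacrophages. Cd4, which mouse macrophages can also transcribe, had 2161 in nerve macrophages and 0 in nerve nonmacrophages. The mast cell protease Mcpt4 had 1008 in nerve macrophages and 0 in nerve nonmacrophages.

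Globin and red cell genes were lower in nerve macrophages for all 6 members, with a median log2 ratio of -6.32. Hba-a1 had 1520 normalized reads in nerve macrophages and 108753 in nerve nonmacrophages, and Alas2, the first enzyme of haem synthesis in red cells, had 59.5 in nerve macrophages and 10549 in nerve nonmacrophages. The list took 0.00779% of reads in macrophages and 0.663% in nonmacrophages. Reads can be shared between Hba-a1 and Hba-a2 and between Hbb-bs and Hbb-bt, whose separate values are uncertain.

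Genes of myelin and of the cells that make it were low in macrophages. All 18 oligodendrocyte genes were at least 4-fold lower in nerve macrophages, against 23.3% of all genes, with a median log2 ratio of -7.54 and 6 members at 0 reads. Cnp, a myelin-associated enzyme, had 6757 normalized reads in nerve macrophages and 136738 in nerve nonmacrophages. The list took 0.0742% of reads in macrophages and 8.89% in nonmacrophages. Of the 16 Schwann cell genes, 13 were at least 4-fold lower and none higher, with a median of -5.04. Pmp22, a membrane protein of peripheral myelin, had 18842 in nerve macrophages and 172913 in nerve nonmacrophages. Drp2, a protein that links Schwann cells to their matrix, had 69.4 in nerve macrophages and 10560 in nerve nonmacrophages. By limma 17 of the 18 oligodendrocyte and 15 of the 16 Schwann cell genes fell in young cochlea macrophages.

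Enzymes that make the lipids of myelin were lower in nerve macrophages for 6 of 14 members, against 23.3% of all genes. The other 8 were within 4-fold, against 65.1% of all genes. Fa2h, which hydroxylates fatty acids for myelin galactolipids, had 92.5 normalized reads in nerve macrophages and 17152 in nerve nonmacrophages. Ugt8a, which makes galactosylceramide, had 253 in nerve macrophages and 27405 in nerve nonmacrophages. Proteins of the node of Ranvier and its flanks, where the axon meets the myelin loops, were lower for 11 of 16. The share of all genes lower was again 23.3%. Cntn2 had 3.3 (2 reads) in nerve macrophages and 1425 in nerve nonmacrophages, Gldn, a Schwann cell ligand that assembles the node, had 221 in nerve macrophages and 5101 in nerve nonmacrophages, and Kcna1, a potassium channel subunit, had 862 in nerve macrophages and 10664 in nerve nonmacrophages.

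**Figure D3:**
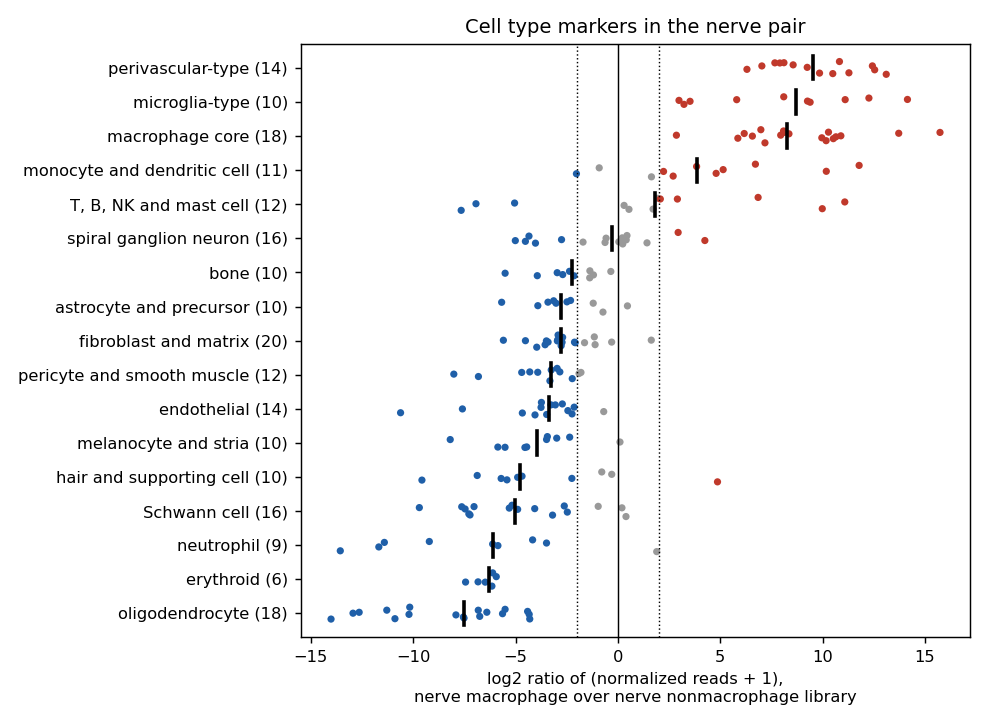
Each point is 1 gene of a cell type list, at its log2 ratio of (normalized reads + 1) between the nerve macrophage and the nerve nonmacrophage library, with the number of genes that passed the filter in parentheses. Black bars mark medians, dotted lines 4-fold, red points genes past it upward and blue points genes past it downward. The medians run from 9.54 for perivascular-type genes to -7.54 for oligodendrocyte genes, and spiral ganglion neuron genes spread from -5.02 to 4.24 with a median of -0.27.

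Neuronal genes went both ways between the nerve libraries, in shares not far from those of all genes. Of 16 spiral ganglion neuron genes, 9 were within 4-fold, against 65.1% of all genes, 2 were higher and 5 lower in nerve macrophages. Of all genes, 11.6% were higher and 23.3% lower. Snap25, a protein of vesicle fusion, had 18339 normalized reads in nerve macrophages and 13534 in nerve nonmacrophages, a ratio of 1.36 (1.32 to 1.39). Nefl, the light neurofilament subunit, had 7452 in nerve macrophages and 6352 in nerve nonmacrophages. Among the higher was Pou4f1, a transcription factor of sensory neurons, with 28.1 in nerve macrophages and 2.8 (2 reads) in nerve nonmacrophages, which came within 4-fold with a pseudocount of 10 (log2 ratio 1.57). Markers of neuron subtypes were among the lower ones, with Calb2 at 69.4 in nerve macrophages and 2277 in nerve nonmacrophages and Th at 95.8 in nerve macrophages and 1583 in nerve nonmacrophages. Slc17a7, the vesicular glutamate transporter, had 11.6 in nerve macrophages and 288 in nerve nonmacrophages. Genes of synaptic release were mostly near equal level, with 13 of 15 within 4-fold and a median log2 ratio of 0.08.

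The young cochlea libraries gave another picture for these genes. Snap25 had 144553 and 74052 normalized reads in cochlea macrophages, against 7576, 17714, 6605 and 2339 in cochlea nonmacrophages. Nefl had 39468 and 28720 in cochlea macrophages, against 1061, 4881, 914 and 995 in cochlea nonmacrophages. By limma 8 of the 16 spiral ganglion neuron genes rose in cochlea macrophages and 2 fell, and 9 of the 16 synaptic release genes tested rose and none fell. The nerve ratio lay below all 8 ratios of single young cochlea libraries (2 macrophage by 4 nonmacrophage) for 9 of the 16 neuron genes and for 10 of the 15 release genes, against 17.4% of all genes. In the lateral wall pair the medians were -3.08 and -2.59. The summed level of the neuron list was 54577 normalized reads in nerve macrophages and 36462 in nerve nonmacrophages. The difference between tissues was not tested, since the nerve had 1 pair.

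Genes of connective tissue and vessels were low in the macrophage library. Of 20 fibroblast and matrix genes, 15 were at least 4-fold lower and none higher, with a median log2 ratio of -2.8. Dcn, the matrix proteoglycan decorin, had 11317 normalized reads in nerve macrophages and 120849 in nerve nonmacrophages, and Apod, a lipid carrier, had 25283 in nerve macrophages and 196990 in nerve nonmacrophages. Sparc, a matrix protein that tissue macrophages also transcribe, had 65682 in nerve macrophages and 81420 in nerve nonmacrophages. Endothelial genes were lower for 13 of 14, among them Vwf with 0 in nerve macrophages and 1575 in nerve nonmacrophages and Emcn with 1551 in nerve macrophages and 39604 in nerve nonmacrophages. Pericyte and smooth muscle genes were lower for 10 of 12, with Notch3 at 0 in nerve macrophages and 259 in nerve nonmacrophages. The endothelial and pericyte medians were -3.38 and -3.29 in the nerve, against -0.48 and -0.4 in the lateral wall pair.

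Genes of astrocytes and glial precursors were also detected, mostly in nonmacrophages. So were genes of cell types that lie outside the nerve, in the hearing epithelium, lateral wall and bone. Of 10 melanocyte and stria genes, 9 were at least 4-fold lower in nerve macrophages, with Dct, an enzyme of pigment synthesis, at 90.9 normalized reads in nerve macrophages and 5370 in nerve nonmacrophages. Of 10 hair and supporting cell genes that passed the filter, 7 were lower and Myo7a higher, with 5268 in nerve macrophages and 180 in nerve nonmacrophages. Myo7a, the myosin of hair cell stereocilia, had a cochlea limma difference of -2.82 with an adjusted p of 0.27. The hair cell genes Otof and Slc26a5 had 4.96 and 0 in nerve macrophages, against 310 and 42.0 in nerve nonmacrophages. Bone genes were lower for 6 of 10, with the osteoblast protein Ibsp at 1837 in nerve macrophages and 11952 in nerve nonmacrophages. Among 10 genes of astrocytes and glial precursors, 7 were lower, with the glutamate transporter Slc1a3 at 1973 in nerve macrophages and 17444 in nerve nonmacrophages.

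Receptor genes of macrophage survival were high in nerve macrophages and their ligand genes low or within 4-fold. Csf1r and Cx3cr1 were high in nerve macrophages as given above, and so were the receptor genes Csf3r, with 10223 normalized reads in nerve macrophages and 101 in nerve nonmacrophages, and Csf2rb, with 5424 in nerve macrophages and 88.1 in nerve nonmacrophages. The ligand Il34 had 354 in nerve macrophages and 1552 in nerve nonmacrophages, 4.39-fold lower (3.79 to 5.11), and its log2 ratio was -1.99 after quantile normalization, within 4-fold. Cx3cl1 had 2062 in nerve macrophages and 9506 in nerve nonmacrophages, 4.61-fold lower (4.34 to 4.9). Csf1, named after its values were seen because it is the other ligand of Csf1r, was within 4-fold, with 1066 in nerve macrophages and 2640 in nerve nonmacrophages. Both Il34 and Cx3cl1 fell in young cochlea macrophages, with adjusted p of 0.036 and 0.016.

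Complement genes were at least 4-fold higher in nerve macrophages for 11 of 16 and lower for 2. Among all genes the shares were 11.6% and 23.3%. Beside C1q, the receptor genes C3ar1 and C5ar1 had 39575 and 26476 normalized reads in nerve macrophages, against 32.2 and 239 in nerve nonmacrophages. The lower members were C1s1, a protease of the C1 complex, with 453 in nerve macrophages and 5204 in nerve nonmacrophages, and Serping1, the inhibitor of that complex, with 3676 in nerve macrophages and 31998 in nerve nonmacrophages. Genes for the recognition subunits of C1 were thus high in nerve macrophages, and those for a protease and its inhibitor were high in nonmacrophages.

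All 16 genes of Fc receptors and phagocytosis that passed the filter were at least 4-fold higher in nerve macrophages, with a median log2 ratio of 7.46. Trem2, a receptor for lipids and debris, had 22174 normalized reads in nerve macrophages and 32.2 in nerve nonmacrophages. Cd36, a scavenger receptor for oxidized lipids, had 18706 in nerve macrophages and 39.2 in nerve nonmacrophages. Axl, a receptor for dying cells, had 52714 in nerve macrophages and 7844 in nerve nonmacrophages, a smaller ratio of 6.72 (6.53 to 6.91). Of the 17 members tested, 14 rose in young cochlea macrophages and none fell.

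Toll-like receptor genes and their partners were at least 4-fold higher for 13 of 15, against 11.6% of all genes. Tlr1 had 5354 normalized reads in nerve macrophages and 0 in nerve nonmacrophages, Tlr7, a sensor of single-stranded RNA, had 13092 in nerve macrophages and 2.8 (2 reads) in nerve nonmacrophages, and Tlr2 had 18650 in nerve macrophages and 310 in nerve nonmacrophages. Tlr4 had 7196 in nerve macrophages and 22.4 in nerve nonmacrophages. Of 16 tested, 6 rose in young cochlea macrophages and none fell, against 9.18% and 22.3% of all genes tested.

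Chemokine ligand genes were at least 4-fold higher in nerve macrophages for 16 of 21 and lower for 4. Of all genes, 11.6% were higher and 23.3% lower. Ccl3, Ccl4 and Ccl12 had 70624, 58869 and 43148 normalized reads in nerve macrophages, against 14.0, 36.4 and 12.6 in nerve nonmacrophages. Ccl3 and Ccl4 are alike in sequence and can share reads. The 4 lower ligands were Ccl11, with 283 in nerve macrophages and 5586 in nerve nonmacrophages, Cxcl12, with 2807 in nerve macrophages and 14138 in nerve nonmacrophages, Cxcl13 and Cx3cl1. Receptor genes were higher for 8 of 14 and lower for 5, or for 3 among genes with at least 100 normalized reads, and Ccr7, a homing receptor of lymphocytes and mature dendritic cells, had 0 in nerve macrophages and 105 in nerve nonmacrophages. By limma 14 of the 22 ligand genes rose in young cochlea macrophages and 4 fell.

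Cytokine genes were higher for 10 of 17 and lower for 3, against 11.6% and 23.3% of all genes. Il1b had 13810 normalized reads in nerve macrophages and 76.9 in nerve nonmacrophages, a ratio of 180 (138 to 239). Il10, an inhibitory cytokine, had 317 in nerve macrophages and 0 in nerve nonmacrophages, at least 75.6-fold higher, and Il6 had 117 in nerve macrophages and 0 in nerve nonmacrophages. Il10 was at a log2 ratio of 0.0 in all 8 cochlea ratios. A gene without reads also has that value, so it does not show equal expression. Tgfb2 and Tgfb3 had 165 and 251 in nerve macrophages, against 1510 and 2887 in nerve nonmacrophages. Of 19 tested, 3 rose in young cochlea macrophages and 3 fell, against 9.18% and 22.3% of all genes tested.

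**Figure D4:**
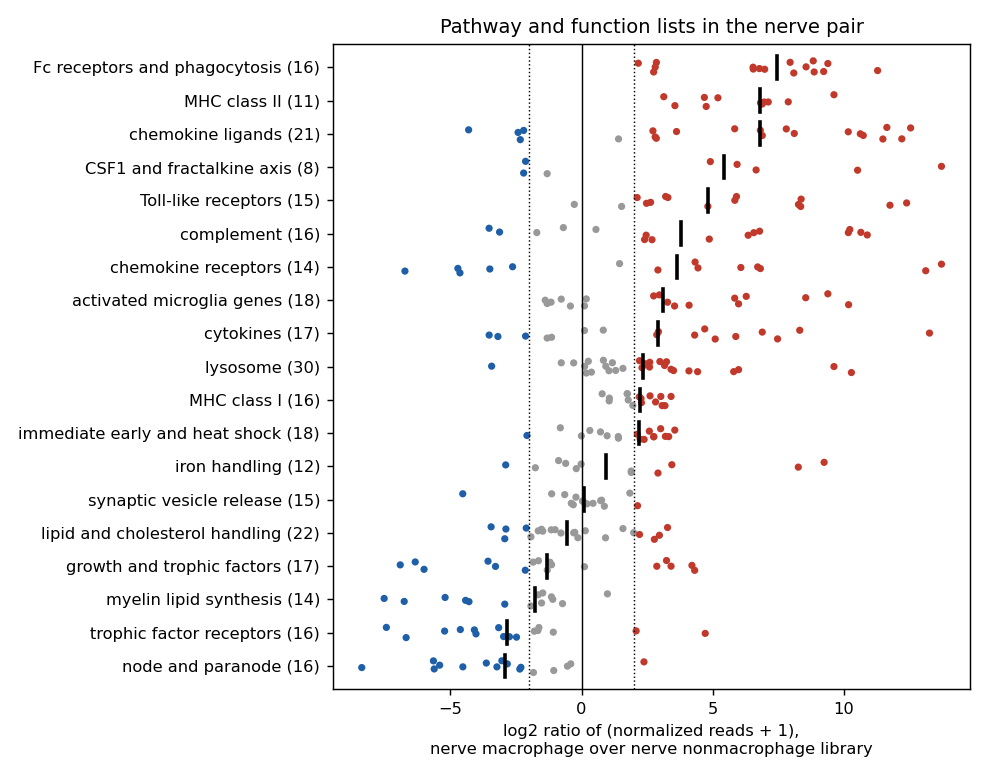
Each point is 1 gene of a pathway list, at its log2 ratio of (normalized reads + 1) between the nerve macrophage and the nerve nonmacrophage library, with the number of genes that passed the filter in parentheses. Black bars mark medians, dotted lines 4-fold, red points genes past it upward and blue points genes past it downward. All genes of Fc receptors and phagocytosis and of MHC class II lie past 4-fold upward, while node and paranode genes have the lowest median, -2.93.

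Antigen presentation genes were high in nerve macrophages. All 11 MHC class II genes that passed the filter were at least 4-fold higher, with a median log2 ratio of 6.82. H2-Ab1 had 102077 normalized reads in nerve macrophages and 818 in nerve nonmacrophages, and Cd74, the invariant chain, had 268245 in nerve macrophages and 2277 in nerve nonmacrophages. Ctss, the protease that degrades that chain, had 305162 in nerve macrophages and 387 in nerve nonmacrophages. MHC class I genes were past 4-fold for 9 of 16 and none was lower, with B2m, the shared light chain, at 177491 in nerve macrophages and 21862 in nerve nonmacrophages. Members of the H2 family are alike in sequence and their separate values are uncertain. By limma 8 of 11 class II and 8 of 16 class I genes rose in young cochlea macrophages and none fell.

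Lysosomal genes were at least 4-fold higher for 17 of 30, against 11.6% of all genes. They took 5.87% of reads in macrophages and 1.1% in nonmacrophages. The cathepsin genes Ctsd, Ctsb and Ctsc had 464476, 309139 and 158433 normalized reads in nerve macrophages, against 51794, 51356 and 2502 in nerve nonmacrophages. Ctsk, the cathepsin of bone resorption, was the lower member, with 205 in nerve macrophages and 2208 in nerve nonmacrophages. Of these 30, 18 rose in young cochlea macrophages and 3 fell, against 9.18% and 22.3% of all genes tested.

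Lipid and cholesterol genes were not high as a group. Beside Apoe, the 4-fold higher members were Abca1, an exporter of cholesterol, with 7371 normalized reads in nerve macrophages and 1075 in nerve nonmacrophages, Lpl, a lipase of lipoproteins, with 4819 in nerve macrophages and 615 in nerve nonmacrophages, and the lysosomal lipase Lipa. The lower members were 4 of 22, a smaller share than the 23.3% of all genes. Among them was Hmgcs1, an early enzyme of cholesterol synthesis, with 5648 in nerve macrophages and 42868 in nerve nonmacrophages. Nr1h3, the nuclear receptor LXR alpha, had 231 in nerve macrophages and 2527 in nerve nonmacrophages. Abca1 had cochlea ratios of -2.46 to 1.65 and an adjusted p of 0.44. Iron genes were past 4-fold higher for 4 of 12, against 11.6% of all genes. Among them was the haem oxygenase gene Hmox1, with 7438 in nerve macrophages and 684 in nerve nonmacrophages. Another was the exporter gene Slc40a1, with 11543 in nerve macrophages and 1531 in nerve nonmacrophages. The storage gene Fth1 had 173609 in nerve macrophages and 317973 in nerve nonmacrophages.

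Genes that microglia raise in disease were at least 4-fold higher for 11 of 18 and lower for none, against 11.6% and 23.3% of all genes. Clec7a, a receptor for fungal glucans, had 25901 normalized reads in nerve macrophages and 68.5 in nerve nonmacrophages, and Cst7, a cystatin, had 1123 in nerve macrophages and 16.8 in nerve nonmacrophages. Spp1, the secreted protein osteopontin, had 53303 in nerve macrophages and 138949 in nerve nonmacrophages, and passed 4-fold lower after quantile normalization (log2 ratio -2.11). By contrast, Spp1 rose in young cochlea macrophages, with a log2 difference of 1.87 and an adjusted p of 0.0005.

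Trophic factor genes were split between the sorts, and most receptor genes were low in macrophages. Of 17 factor genes, 5 were at least 4-fold higher and 6 lower in nerve macrophages, or 2 lower among genes with at least 100 normalized reads. Over all genes the shares were 11.6% higher and 23.3% lower. Higher members were Grn, progranulin, with 127243 normalized reads in nerve macrophages and 13481 in nerve nonmacrophages, and Tgfb1 with 3737 in nerve macrophages and 187 in nerve nonmacrophages. Ntf3, the neurotrophin NT-3, had 0 in nerve macrophages and 119 in nerve nonmacrophages, and Igf1 had 3985 in nerve macrophages and 3684 in nerve nonmacrophages. Receptor genes were lower for 10 of 16. Erbb3, the neuregulin receptor of Schwann cells, had 92.5 in nerve macrophages and 2292 in nerve nonmacrophages, and Fgfr2 had 527 in nerve macrophages and 8566 in nerve nonmacrophages. Tgfbr1 and Tgfbr2, the receptors for TGF beta, had 32782 and 34212 in nerve macrophages, against 1249 and 8085 in nerve nonmacrophages, and Tgfbr2 came within 4-fold after quantile normalization (log2 ratio 1.78). Tgfbr1 rose in young cochlea macrophages (adjusted p of 0.0018) and Tgfbr2 did not pass the test (adjusted p of 0.22).

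Immediate early and heat shock genes, which cell dissociation can induce, were at least 4-fold higher in nerve macrophages for 10 of 18 and lower for 1. For all genes the shares were 11.6% and 23.3%. Fos, Egr1 and Dusp1 had 332005, 229149 and 235518 normalized reads in nerve macrophages, against 63557, 34027 and 25715 in nerve nonmacrophages. The list took 3.32% of reads in macrophages and 0.832% in nonmacrophages, and its part in the other results was not tested. Of these 18, 6 rose in young cochlea macrophages and 2 fell, and Fos had an adjusted p of 0.15. Ribosomal protein genes had a median log2 ratio of 1.09, with 45 of 46 within 4-fold.

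Directions in the nerve pair were compared with the calls of the replicated young cochlea libraries. In the limma fit to 14 sorted whole-cochlea libraries, 6 young and 8 old, 1693 of 18441 genes (9.18%) rose in young macrophages and 4121 (22.3%) fell, at a Benjamini-Hochberg threshold of 0.05. Of the 1751 genes at least 4-fold higher in nerve macrophages that were tested there, 652 (37.2%) rose in cochlea macrophages and 100 (5.71%) fell. Of the 3555 genes at least 4-fold lower, 1789 (50.3%) fell in cochlea macrophages and 44 (1.24%) rose. Counted the other way, the shared genes were 39.3% of the 1660 called higher and 45.6% of the 3924 called lower that passed the nerve filter. With the 6 young libraries alone limma called 341 genes higher and 1085 lower, and with library quality weights 33 and 542, while quantile normalization gave 2361 and 2797.

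Across genes, the nerve log2 ratio and the mean of the 8 cochlea ratios had a Pearson correlation of 0.52 and a Spearman correlation of 0.45 over 15276 genes. Nerve and lateral wall ratios had correlations of 0.53 and 0.54. Genes are not independent replicates, and these values describe the libraries. The nerve ratio was above all 8 cochlea ratios for 3117 genes (20.4%), below all of them for 2661 (17.4%) and inside their range for 9498. Of the oligodendrocyte genes, 13 of 18 lay below all 8, and of the melanocyte and stria genes 8 of 10 did. Of the fibroblast and matrix genes, 8 of 20 lay above all 8, and none below. The ribosomal protein genes were all inside the range.

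**Figure D5:**
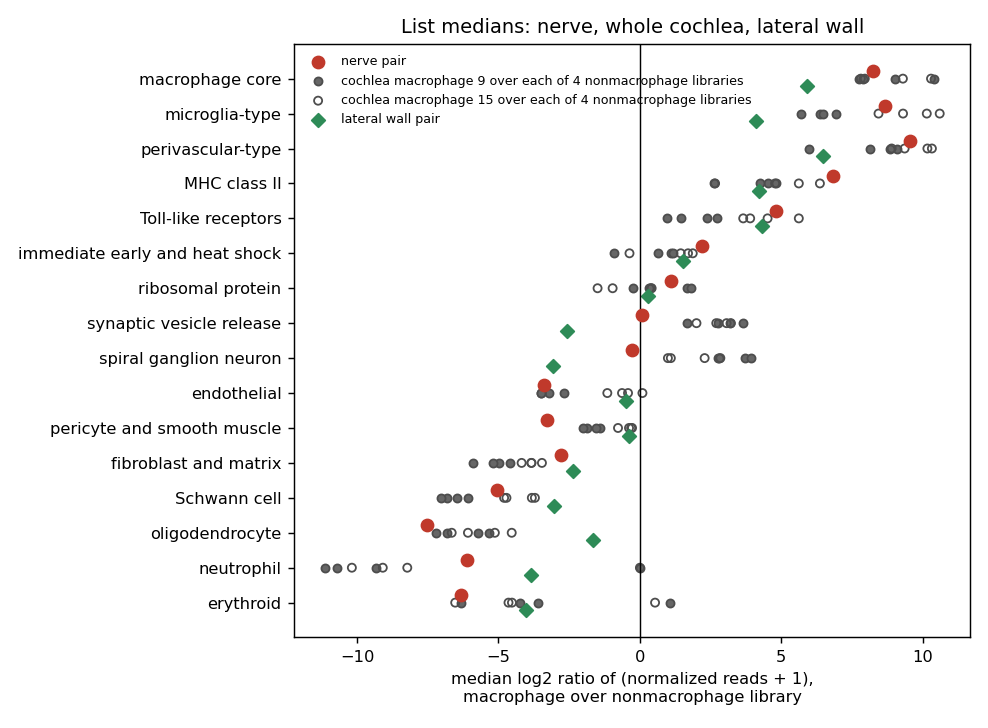
For each list (rows) the x axis gives the median log2 ratio of (normalized reads + 1), macrophage over nonmacrophage, in the nerve pair (red), in the 8 pairs of single young cochlea libraries (grey filled for macrophage replicate 9, open for replicate 15) and in the lateral wall pair (green). The nerve median for oligodendrocyte genes, -7.54, lies below those of all cochlea pairs (-7.22 to -4.53) and of the lateral wall pair (-1.65), and the spiral ganglion neuron median, -0.27, lies below the cochlea pairs (0.99 to 3.94) and above the lateral wall pair (-3.08).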

How the data were processed

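RNA of sorted cells was made into SMARTer Ultra and Nextera XT libraries, which do not keep the strand, and some samples were sequenced again, per the labels' protocols. Reads of a gene and its antisense partner cannot be told apart. Per the submitters' processing notes, the build was mm10 and the tools included DESeq2, TopHat2 and Partek, with no version given. The deposited table holds signal values that the authors made by dividing gene counts by a factor per library. Whole reads were recovered for 99.89% of values within 0.1 of a whole number. Samples share no stated culture or litter, and p-values measure the spread between these samples.

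Nerve ratios are log2 of (value + 1) for genes with a value of at least 20 in either library, with exact 95% Clopper-Pearson intervals on reads. The cochlea test was limma 3.58.1 (trend, robust) in R 4.3.3 on log2(value + 1) of 14 sorted whole-cochlea libraries (6 young, 8 old), young macrophage minus young nonmacrophage, with Benjamini-Hochberg adjustment over 18441 genes. Because the file held scaled values and not raw counts, edgeR 4.0.16 on recovered reads was an alternative. Other alternatives were the pseudocount, the filters, the scaling, thinning, library weights and leaving out libraries. The scripts were tested on simulated data.

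Named genes were the markers Cx3cr1, Apoe and Mbp, and the 12 highest and 12 lowest ratios among genes with at least 500 normalized reads. Per list, they were also up to 5 members of largest ratio, up to 3 of highest level and those past 4-fold against the list's median. Some genes that this rule names are not reported here. Predicted, clone, Xist and Y-linked names were left out of the 12. The members and the 39 lists were chosen with earlier results of these data known. Gene positions are of mm10 and were matched for 18294 of 18639 symbols.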

Additional observations from a re-analysis of the deposited data

Results flagged for a closer look

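Some genes were past 4-fold one way in the nerve pair and past 4-fold the other way in all 8 ratios of single young cochlea libraries. There were 36 such genes among the 15276 that passed the filter, 31 of them higher and 5 lower in nerve macrophages. The 11 with at least 500 normalized reads in a nerve library are given here. All 11 were higher in nerve macrophages. The difference between the tissues was not tested. The cochlea macrophage libraries detected 11652 and 13532 genes, against 14428 in nerve macrophages, and the part of this in the result was not tested.

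Bub1b, a mitotic checkpoint kinase, had 1926 normalized reads in nerve macrophages and 127 in nerve nonmacrophages, a log2 ratio of 3.91, against -7.51 to -2.56 in the cochlea pairs and 2.34 in the lateral wall pair. Tpx2, a spindle assembly protein, had 506 in nerve macrophages and 113 in nerve nonmacrophages, a log2 ratio of 2.15, against -7.85 to -3.57 in the cochlea pairs and 2.29 in the lateral wall pair. Lmnb1, a lamin of the nuclear envelope, had 603 in nerve macrophages and 93.7 in nerve nonmacrophages, a log2 ratio of 2.67, against -8.55 to -3.36 in the cochlea pairs and 1.7 in the lateral wall pair. Slx4, a scaffold of DNA repair nucleases, had 995 in nerve macrophages and 232 in nerve nonmacrophages, a log2 ratio of 2.09, against -8.83 to -4.36 in the cochlea pairs and 1.6 in the lateral wall pair.

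The lateral wall ratio thus had the direction of the nerve for these 4 genes. The nerve log2 ratio of Pik3r6, a regulatory subunit of a phosphoinositide 3-kinase of leukocytes, was 2.77 (2252 in nerve macrophages and 330 in nerve nonmacrophages), against -8.09 to -6.4 in the cochlea pairs and 0.97 in the lateral wall pair. Mlph, an adaptor of melanosome transport, had a ratio of 3.93, against -7.89 to -5.34 in the cochlea pairs and -10.09 in the lateral wall pair. Lnpep, a membrane aminopeptidase, had a ratio of 3.0 (869 in nerve macrophages and 108 in nerve nonmacrophages), against -8.32 to -4.33 in the cochlea pairs and 0.45 in the lateral wall pair. Nfrkb, Atad2b, Zzef1 and Zbtb34 had nerve ratios of 2.63, 2.53, 2.91 and 3.97, with cochlea ratios of -5.15 to -2.0 for Nfrkb, -7.65 to -3.4 for Atad2b, -10.52 to -4.51 for Zzef1 and -6.94 to -4.3 for Zbtb34. Their lateral wall ratios were -3.6, 0.54, -0.46 and 1.32. Zbtb34 had 1.76 and 0 normalized reads in cochlea macrophage replicates 9 and 15, against 53.3 to 122 in cochlea nonmacrophages. Both macrophage values lie under the value of 3 reads in those libraries, 5.27 and 3.39. The size of its cochlea ratios is therefore uncertain.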

How the results depend on the processing

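The nerve counts of 1769 higher and 3566 lower genes stayed within 1.5 times under every alternative run. Scaling to a common total moved the median log2 ratio to -0.41 and gave 1565 and 3866, and omitting the filter gave 1951 and 4171. Of the named genes' ratios, 1312 kept their value within counting error and 302 moved, while 603 list counts stayed within 1.5 times and 21 moved further. The cochlea calls depended more on the fit. With the 6 young libraries alone 341 genes were called higher and 1085 lower, shared with 262 and 703 of the nerve genes. Library quality weights gave 33 and 542, shared with 31 and 306. The cause was not tested. Leaving out each young library gave 1641 to 2456 higher and 3262 to 5528 lower calls, with 600 to 784 and 1501 to 1793 shared. edgeR gave 1647 and 3498. For Cx3cr1, Apoe, Mbp and the genes at the ends of the nerve ratio, 298 cochlea results stayed on their side of the threshold. Another 38 lost it, 19 of them with library quality weights, 2 passed it and 0 changed sign. The nerve libraries could not be left out in turn, since each sort had 1. No paired analysis was possible because the library numbers are not shared between the groups compared.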

Other observations

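Genes of the cell cycle, a list put together after the data were seen, were at least 4-fold higher in nerve macrophages for 16 of 24, against 11.6% of all genes, and lower for none, with a median log2 ratio of 2.34. Top2a, which untangles DNA in dividing cells, had 1421 normalized reads in nerve macrophages and 26.6 in nerve nonmacrophages. Mki67, the proliferation marker Ki-67, had 1047 in nerve macrophages and 106 in nerve nonmacrophages, against 0 and 0 in the young cochlea macrophage libraries. The list's median was 1.69 in the lateral wall pair and -6.09 to 1.29 in the 8 cochlea pairs, and the nerve ratio was above all 8 for 10 of the 24 genes, against 20.4% of all genes. By limma 5 of the 24 rose in young cochlea macrophages and 5 fell, against 9.18% and 22.3% of all genes tested. The share that fell was thus near that of all genes. Mki67 was among those that fell, by 5.24 on the log2 scale with a limma adjusted p of 0.0097. The difference between the tissues was not tested.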
